A study of Mus musculus with 6 samples.

Results

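The 10 genes described here were grouped as homeostatic lymphoid chemokines and receptors. They are the chemokines Cxcl12, Cxcl13, Ccl19, Ccl20 and Ccl5, of which Ccl5 fits that name least, and the receptors Ackr3, Cxcr4, Cxcr5, Ccr6 and Ccr7. They were taken by gene symbol, with no cutoff on measured values though with earlier results of these data known, and all 10 have a row among the 23284 gene symbols of the table, Ackr3 under its older symbol Cxcr7. The groups were 3 Fra-2tg mice, transgenic for Fra-2, and 3 wild-type littermates (WT), all C57BL/6 and 6 weeks old, with 1 poly(A) library made from the lung of each. Fra-2 is the protein of Fosl2 and belongs to the AP-1 family of transcription factors. Neither labels nor design text name the promoter that drives the transgene. The question was which of these genes differ between the genotypes.

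Homeostatic chemokines guide lymphocytes and dendritic cells to their places in lymphoid tissue. CXCL13 draws CXCR5-bearing B cells into follicles, CCL19 draws CCR7-bearing T cells and mature dendritic cells into T zones, and CCL20 attracts CCR6-bearing cells to epithelium and nascent follicles. CXCL12 retains CXCR4-bearing cells in bone marrow and other tissues, and ACKR3, its atypical receptor, takes the chemokine up without G-protein signalling. CCL5 is made by activated T cells and natural killer cells and acts mainly on receptors outside these members. In lung these chemokines are known from the lymphoid aggregates that form near airways and vessels during chronic inflammation.

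Values are FPKM, which divides fragment numbers by gene length and library size, so levels may be compared between genes. Differences are log2 fold changes of FPKM + 1, Fra-2tg minus WT, which understate changes of genes near or under 1 FPKM. A gene was called at a limma adjusted p under 0.05 over the 14855 genes that averaged 0.5 FPKM or more across the 6 libraries, a filter that all 10 members passed. Fosl2 was 12.3 to 17.4 FPKM in Fra-2tg and 11.1 to 13.9 FPKM in WT (limma adjusted p = 0.158), so it does not check the labels. Libraries correlated across genes at 0.968 to 0.981 within groups and 0.932 to 0.961 between them. The alveolar genes Sftpb and Ager were abundant in every library, Ager at 1332 FPKM in Fra-2tg replicate 2, whereas Sftpc had a 0 for each Fra-2tg mouse and Scgb1a1 a 0 in 2 libraries. An exact 0 for genes this abundant elsewhere can be a failed estimate, so nothing is read from it.

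WT replicate 1 stood apart from the other libraries in lymphoid genes. Glycam1, a mucin-like protein of lymph node venules, was 40.4 FPKM there and at most 0.348 FPKM in the other 5 libraries. Madcam1, another venule addressin, was 0.766 FPKM there, at most 0.139 FPKM in Fra-2tg and listed at 0 in the other WT libraries. The summed level of 15 B cell markers was 423 FPKM in WT replicate 1 and 188 and 240.3 FPKM in WT replicates 2 and 3. For 5 of the 10 members WT replicate 1 held at least 2 times the value of both other WT libraries, against 1.43% of all tested genes. No member stood out in this way in WT replicate 2 or 3. The fold change of each member and the counts of each list are therefore also given without WT replicate 1, and whether lymph node tissue was part of that sample was not tested.

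In Fra-2tg lung, Cxcl12 and its atypical receptor Ackr3 rose and Cxcr5, a chemokine receptor gene of B cells, fell. Of the 10 members 2 were called higher, where 13.6% of all tested genes were, and 1 was called lower, where 13% of all tested genes were. Together 3 of 10 were called, close to the 26.7% of all genes. The median log2 fold change of the members was -0.18, and that of all tested genes 0.00. Without WT replicate 1 a further pair, Cxcl13 and Ccl20, was called higher, which made 4 members higher, where 10.9% of all genes were, and 1 lower, where 9.65% were (20.5% in either direction). That library was set apart in part by its high values of members, with Cxcl13 and Ccl20 among them. The 2 added calls follow from leaving those values out, a choice that the shares over all genes do not carry. The genotypes did not overlap for 4 members, against 45.7% of all tested genes, and for 6 members without WT replicate 1, against 54.7%. Of all genes called, 51.1% were higher, but 25% after scaling to equal library sums.

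**Figure D1:**
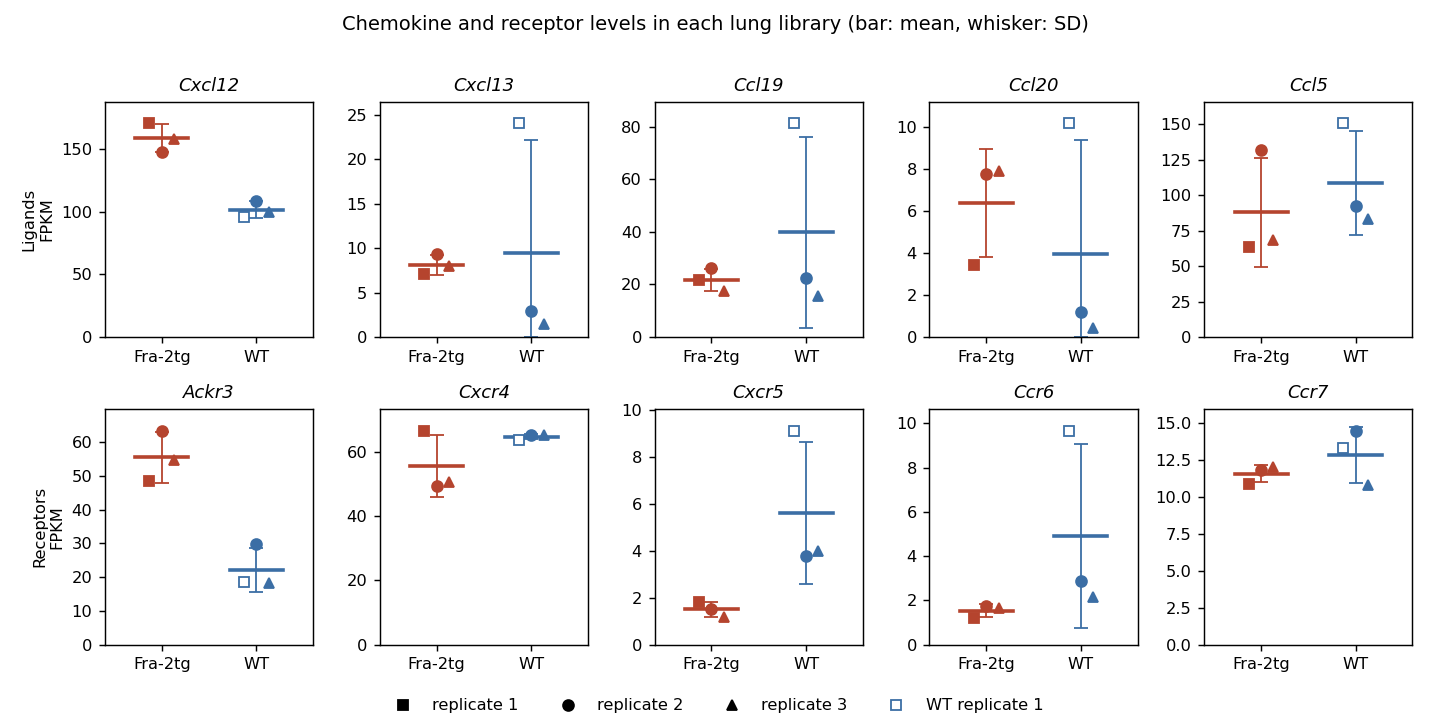
FPKM of the 5 ligands (top) and 5 receptors (bottom) in each library, with Fra-2tg left of WT in each panel; bars are means and whiskers SD (n = 3), cut at 0. The open square, WT replicate 1, lies far above the other WT libraries for Cxcl13, Ccl19, Ccl20, Cxcr5 and Ccr6, and the genotypes separate for Cxcl12, Ackr3, Cxcr5 and Ccr6.

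By level, Cxcl12 led the members in Fra-2tg lung at a mean of 159 FPKM, above Ccl5 (87.8), Cxcr4 (55.6) and Ackr3 (55.5 FPKM). Ccl19 (21.7), Ccr7 (11.6), Cxcl13 (8.12), Ccl20 (6.38), Ccr6 (1.53) and Cxcr5 (1.5 FPKM) followed. In that order the neighbours Ccl5 and Cxcr4, Cxcr4 and Ackr3, Cxcl13 and Ccl20, and Ccr6 and Cxcr5 overlapped across the Fra-2tg libraries, and the other neighbours did not. In WT lung Ccl5 (109 FPKM) and Cxcl12 (102 FPKM) overlapped at the top, Cxcr4 (64.8 FPKM) and Ccl19 (39.8 FPKM) overlapped next, and Ackr3 came after them at 22.2 FPKM, within the range of Ccl19. Ccr7, Cxcl13, Cxcr5, Ccr6 and Ccl20, at means of 12.9 to 3.95 FPKM in WT, each overlapped the next in that order.

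Cxcl12, the stromal and endothelial ligand of CXCR4, lies on chromosome 6 (117168535 to 117181367, plus strand, GRCm38). It was 171, 148 and 158 FPKM in Fra-2tg replicates 1 to 3, against 95.6, 109 and 100.2 FPKM in WT replicates 1 to 3. Every Fra-2tg library lay above every WT library. Its means were 159 ± 11.6 FPKM in Fra-2tg and 102 ± 6.94 FPKM in WT (SD, n = 3 each), a ratio of 1.57. The log2 fold change was 0.64 ± 0.08 (SE), with limma adjusted p = 0.00278, and 0.60 ± 0.09 without WT replicate 1 (limma adjusted p = 0.0107).

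Ackr3, the atypical receptor of CXCL12, lies on chromosome 1 (90203980 to 90216751, plus strand). It was 48.4, 63.5 and 54.7 FPKM in Fra-2tg replicates 1 to 3, against 18.7, 29.8 and 18.2 FPKM in WT replicates 1 to 3. The groups did not overlap, and WT replicate 2 was the WT library nearest to Fra-2tg. The means were 55.5 ± 7.59 FPKM in Fra-2tg and 22.2 ± 6.56 FPKM in WT (SD, n = 3 each), a ratio of 2.5. Its log2 fold change of 1.31 ± 0.20 had limma adjusted p = 0.00497, and without WT replicate 1 it was 1.21 ± 0.22 (limma adjusted p = 0.0159).

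Cxcr4, the signalling receptor of CXCL12 on leukocytes and endothelium, lies on chromosome 1 (128588199 to 128592293, minus strand). It was 66.7, 49.3 and 50.8 FPKM in Fra-2tg replicates 1 to 3, against 63.8, 65.3 and 65.4 FPKM in WT replicates 1 to 3. Fra-2tg replicates 2 and 3 lay below all WT libraries and Fra-2tg replicate 1 above them. The log2 fold change of -0.23 (95% interval -0.50 to 0.04) was not called (limma adjusted p = 0.182), nor was that of -0.24 without WT replicate 1 (limma adjusted p = 0.262). The call depends on 1 library, since Cxcr4 was called lower without Fra-2tg replicate 1 (log2 fold change -0.37, limma adjusted p = 0.015). After scaling libraries to the same sum it was also called lower (-0.38, limma adjusted p = 0.048), but that scaling shifted the median of all genes by -0.13, and relative to that median Cxcr4 was at -0.25. Within a library, Ackr3 was 0.725, 1.29 and 1.07 times Cxcr4 in Fra-2tg and 0.293, 0.456 and 0.279 times Cxcr4 in WT. Cxcl12 was 2.57, 3.01 and 3.11 times Cxcr4 in Fra-2tg and 1.5, 1.67 and 1.53 times in WT. Both ratios were higher in each Fra-2tg library than in any WT library. Cxcr4 is carried by B cells, T cells and neutrophils, and of 8 neutrophil genes 0 were called higher and 6 lower (the same counts without WT replicate 1, and 3 lower without Fra-2tg replicate 1), with a summed level of 169 to 189.8 FPKM in Fra-2tg and 276 to 652 FPKM in WT. Set against the mean log2 level of marker lists, Cxcr4 was higher in Fra-2tg by 1.39 (B cells) and 0.59 (neutrophils), both without overlap and with exact two-sided permutation p = 0.1, and lower by 0.52 against T cell markers (exact permutation p = 0.2). The part of these cells in the level of Cxcr4 was not tested.

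The RefSeq promoter windows of the pair that rose, Cxcl12 and Ackr3, are shown with that of Ccl20, which was called without WT replicate 1. Each is the 250 bases before the annotated start (GRCm38.p6), at chr6:117168285-117168534 for Cxcl12, chr1:90203730-90203979 for Ackr3 and chr1:83116516-83116765 for Ccl20, all on the plus strand and written 5′ to 3′. Capitals mark a match to a searched motif.
Cxcl12: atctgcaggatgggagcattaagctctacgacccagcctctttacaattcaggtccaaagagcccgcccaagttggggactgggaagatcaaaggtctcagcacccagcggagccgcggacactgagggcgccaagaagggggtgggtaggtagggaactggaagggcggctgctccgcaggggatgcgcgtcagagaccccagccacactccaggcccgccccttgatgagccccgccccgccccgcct
Ackr3: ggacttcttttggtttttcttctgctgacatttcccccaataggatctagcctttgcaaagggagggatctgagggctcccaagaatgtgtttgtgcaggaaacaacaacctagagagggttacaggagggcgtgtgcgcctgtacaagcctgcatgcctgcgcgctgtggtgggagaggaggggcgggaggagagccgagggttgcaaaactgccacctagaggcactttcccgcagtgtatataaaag
Ccl20: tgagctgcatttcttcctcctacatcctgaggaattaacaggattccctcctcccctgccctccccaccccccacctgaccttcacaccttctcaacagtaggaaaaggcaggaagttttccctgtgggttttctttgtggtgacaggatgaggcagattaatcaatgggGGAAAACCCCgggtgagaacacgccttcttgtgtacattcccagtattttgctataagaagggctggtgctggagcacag
Windows were found for 7 of the 10 members, 8 windows in all, with a pair for Ccr6. Both strands were searched for the AP-1 site TGANTCA, the kB site (GGG and TTCC with any 3 bases between) and the STAT site TTCNNNGAA. The AP-1 letters were in 0 of the 8 windows and in 6.75% of all 32851 windows of this length. The kB letters were in the Ccl20 window, read on the minus strand and starting 80 bases before the start, and in 1 Ccr6 window, against 4.65% of all windows. The STAT letters occurred 2 times in the other Ccr6 window, against 7.02% of all windows with at least 1 match. The matches did not overlap each other. A match is a run of letters and no evidence of binding.

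Markers of the cells that could carry Cxcl12 and Ackr3 were called lower more often than higher. Of 10 fibroblast genes 1 was called higher and 7 lower (1 and 8 without WT replicate 1, but 4 lower without WT replicate 3), with a summed level of 1940.4 to 2134 FPKM in Fra-2tg and 2469 to 2879 FPKM in WT. Pdgfra, a receptor of alveolar fibroblasts, fell to 29.2 ± 2.54 FPKM in Fra-2tg, against 52.4 ± 4.85 FPKM in WT (limma log2 fold change -0.82). Of 10 capillary endothelial genes 3 were higher and 5 lower, and 1 and 4 without WT replicate 1 (summed level 1352 to 1546 FPKM in Fra-2tg and 1701 to 1837 FPKM in WT), and of 9 arterial genes 1 was higher and 3 lower, also without WT replicate 1 (229.6 to 304 FPKM in Fra-2tg and 303 to 311 FPKM in WT). No gene of these lists was at 0 in any library, and in bulk RNA fewer cells of a type and less RNA per cell cannot be told apart. Set against the mean log2 level of each list, Cxcl12 was higher in Fra-2tg by 0.79 (arterial), 1.06 (capillary) and 1.07 (fibroblast), and Ackr3 by 1.46, 1.73 and 1.73 in the same order. All 6 of these differences separated the groups, with exact two-sided permutation p = 0.1, the smallest that 3 against 3 libraries can give. Over the 16 such member and list pairs computed, the Benjamini-Hochberg value of these exact permutation tests was 0.133. By their own levels both members already separated the groups, as 45.7% of all tested genes did. Each list had more genes called lower than higher, so the 6 differences are not 6 separate results.

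Cxcr5, which directs B cells and follicular helper T cells towards CXCL13, lies on chromosome 9 (44511787 to 44561877, minus strand). It was 1.79, 1.52 and 1.18 FPKM in Fra-2tg replicates 1 to 3, against 9.11, 3.75 and 3.98 FPKM in WT replicates 1 to 3. Every Fra-2tg library lay below every WT library, and WT replicate 1 was the highest of all. The means were 1.5 ± 0.303 FPKM in Fra-2tg and 5.61 ± 3.03 FPKM in WT (SD, n = 3 each), 0.266 times WT. Cxcr5 fell by 1.32 ± 0.29 on the log2 scale (limma adjusted p = 0.0182). Without WT replicate 1 the fall was smaller and the spread less, at -0.97 ± 0.13 (limma adjusted p = 0.00814). Without Fra-2tg replicate 3 the call was lost (log2 fold change -1.23, limma adjusted p = 0.0581). Cxcr5 overlaps Bcl9l on the opposite strand in GENCODE M21. Bcl9l was 13.8 to 17.2 FPKM in Fra-2tg and 18.9 to 19.3 FPKM in WT and was also called lower (log2 fold change -0.28, limma adjusted p = 0.0469). No source states whether counting used the strand.

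B cell markers fell along with Cxcr5. Of 15 markers 0 were called higher and 13 lower, with a median log2 fold change of -1.45, and 14 were lower without WT replicate 1 (median -1.20). Their summed level was 60.1 to 78.8 FPKM in Fra-2tg and 188 to 423 FPKM in WT, and none was at 0 in any library. Fcmr, the IgM Fc receptor, had the smallest adjusted p of the list and fell to 1.81 ± 0.209 FPKM in Fra-2tg against 20.6 ± 8.36 FPKM in WT. Cd79a, a chain of the B cell receptor complex, fell to 13.5 ± 3.41 FPKM in Fra-2tg against 68.7 ± 26.9 FPKM in WT. Set against the mean log2 level of 14 of these markers, Cxcr5 was higher in Fra-2tg by 0.29 (exact two-sided permutation p = 0.1, the smallest possible), a difference of 0.14 with a pseudocount of 0.1 FPKM (exact permutation p = 0.4). How far the B cell content sets the level of Cxcr5 was not tested.

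Ccr6, the receptor of CCL20 on B cells, T helper 17 cells and immature dendritic cells, lies on chromosome 17 (8236043 to 8257141, plus strand). It was 1.19, 1.72 and 1.66 FPKM in Fra-2tg replicates 1 to 3, against 9.67, 2.88 and 2.16 FPKM in WT replicates 1 to 3. The groups did not overlap, but WT replicate 1 lay far above the other WT libraries. Its log2 fold change of -1.01 (95% interval -2.04 to 0.01) was not called (limma adjusted p = 0.127). Without WT replicate 1 it was -0.48 (95% interval -0.84 to -0.11, limma adjusted p = 0.0718). Relative to the B cell markers Ccr6 was higher in Fra-2tg by 0.60 (exact permutation p = 0.2).

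Ccr7, which takes naive lymphocytes and mature dendritic cells to T zones, lies on chromosome 11 (99144196 to 99155077, minus strand). It was 10.9, 11.8 and 12.0 FPKM in Fra-2tg replicates 1 to 3, against 13.3, 14.5 and 10.8 FPKM in WT replicates 1 to 3. The groups overlapped, with WT replicate 3 the lowest of all libraries. A log2 fold change of -0.13 (95% interval -0.39 to 0.12) was not called (limma adjusted p = 0.397), nor was that of -0.10 without WT replicate 1 (limma adjusted p = 0.591).

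Markers of the cells that carry Ccr7 moved both ways. Of 7 genes of naive lymphocytes 0 were higher and 3 lower with and without WT replicate 1, among them the T cell factor gene Lef1, which fell to 1.81 ± 0.167 FPKM in Fra-2tg against 4.53 ± 0.617 FPKM in WT. Of 10 genes of migratory dendritic cells 5 were higher and 0 lower, and 7 and 0 without WT replicate 1. The actin-bundling protein gene Fscn1 rose to 43.7 ± 5.18 FPKM in Fra-2tg against 20.8 ± 5.30 FPKM in WT, and the chemokine Ccl22 to 23.1 ± 0.415 FPKM in Fra-2tg against 11.3 ± 1.88 FPKM in WT. The summed level of that list was 500.2 to 808 FPKM in Fra-2tg and 132 to 235 FPKM in WT. Ccl17 was most of that sum in Fra-2tg (303 to 608 FPKM) but not in WT (17.3 to 100.3 FPKM). Set against the mean log2 level of 9 of these dendritic cell genes, with the one that is also in another list left out, Ccr7 was lower in Fra-2tg by 1.01, and against 15 T cell markers by 0.42, each without overlap (exact two-sided permutation p = 0.1, the smallest possible). Ccr7 itself had a log2 fold change of -0.13, while those of the 9 dendritic cell genes ran from -0.19 (Cd40) to 3.54 (Ccl17). Of the 15 T cell markers 3 were higher and 1 lower, against 13.6% and 13% of all tested genes. Without WT replicate 1, 8 were higher and 0 lower, against 10.9% and 9.65% of all tested genes. The part of these cell types in the level of Ccr7 was not tested.

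**Figure D2:**
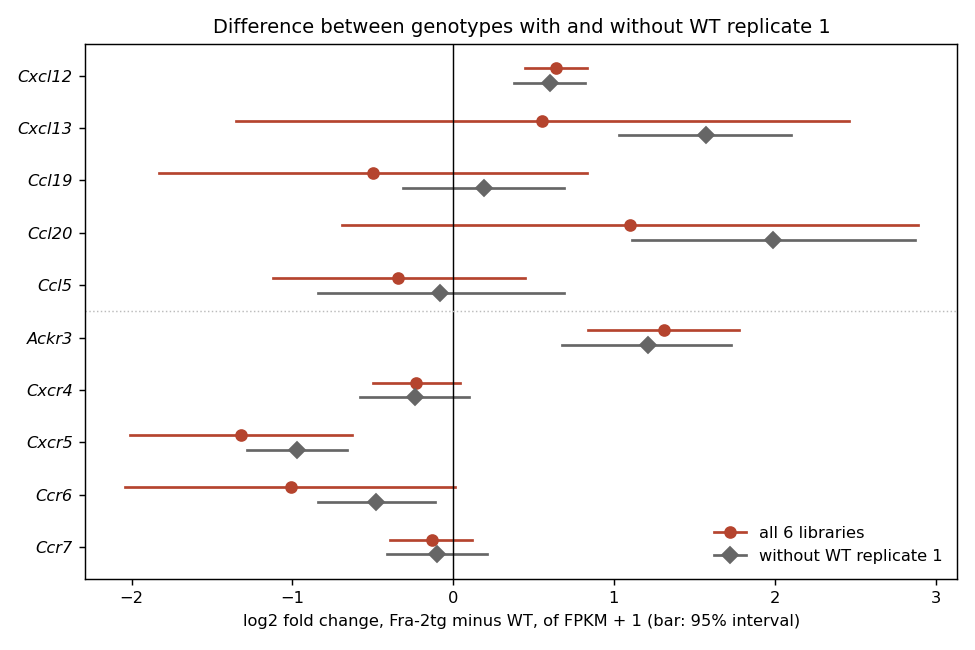
Log2 fold change of FPKM + 1, Fra-2tg minus WT, with its 95% interval from limma, for each member with all 6 libraries (circles) and without WT replicate 1 (diamonds). Cxcl12, Ackr3 and Cxcr5 keep their sides of 0 in both, the intervals of Cxcl13, Ccl20 and Ccr6 clear 0 without that library but not with it, and Ccl19 changes sign.

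Cxcl13, the follicular B cell chemokine, lies on chromosome 5 (95956951 to 95961068, plus strand). It was 7.10, 9.31 and 7.96 FPKM in Fra-2tg replicates 1 to 3, against 24.1, 2.89 and 1.42 FPKM in WT replicates 1 to 3. All Fra-2tg libraries lay between WT replicate 1 and the other WT libraries. With all libraries the log2 fold change was 0.55 (95% interval -1.35 to 2.46) and not called (limma adjusted p = 0.642). Without WT replicate 1 Cxcl13 was called higher, at 8.12 FPKM in Fra-2tg and 2.15 FPKM in WT on average, a log2 fold change of 1.57 ± 0.22 (limma adjusted p = 0.00921). Without WT replicate 3 the sign turned, at -0.12 (limma adjusted p = 0.929). The call therefore depends on 1 library.

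Ccl20, a chemokine of airway epithelium and of cells stimulated by inflammatory cytokines, lies on chromosome 1 (83116766 to 83119167, plus strand). It was 3.41, 7.78 and 7.93 FPKM in Fra-2tg replicates 1 to 3, against 10.2, 1.19 and 0.426 FPKM in WT replicates 1 to 3. As for Cxcl13, WT replicate 1 lay above all Fra-2tg libraries and the other WT libraries below them. Its log2 fold change was 1.1 (95% interval -0.69 to 2.89), not called with all libraries (limma adjusted p = 0.316), and 1.99 ± 0.36 without WT replicate 1 (limma adjusted p = 0.0162). The call therefore depends on leaving out that library. Of 9 tested airway epithelial genes 2 were higher and 2 lower (3 and 2 without WT replicate 1), with a summed level of 3215 to 5255 FPKM in Fra-2tg and 4189 to 5964 FPKM in WT. Krt5, a basal cell keratin outside the tested genes, was under 1 FPKM in every library. Relative to the list Ccl20 was higher in Fra-2tg by 0.88 (exact permutation p = 0.4) and by 1.71 without WT replicate 1.

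Ccl19, the T zone chemokine, lies on chromosome 4 (42754525 to 42756577, minus strand). It was 21.5, 26.1 and 17.6 FPKM in Fra-2tg replicates 1 to 3, against 81.4, 22.4 and 15.5 FPKM in WT replicates 1 to 3. Apart from WT replicate 1 the groups overlapped. Its log2 fold change was -0.50 (95% interval -1.83 to 0.83, limma adjusted p = 0.544) and turned to 0.19 without WT replicate 1 (95% interval -0.31 to 0.69, limma adjusted p = 0.535). Ccl21a, the other CCR7 ligand, was 44.7 to 56.6 FPKM in Fra-2tg and 36.5 to 51.6 FPKM in WT and was not called, and WT replicate 1 was not apart from the rest in it. Its near-identical copies Ccl21b and Ccl21c were listed at 0 in all libraries, so how fragments were split among them is uncertain. Ccl19 overlaps 4930578G10Rik on the opposite strand, which has no row in the table. Of 8 tested lymph node venule and stroma genes 1 was higher and 1 lower (1 and 2 of 7 without WT replicate 1), with a summed level of 164 to 172 FPKM in Fra-2tg and 164 to 224 FPKM in WT, highest in WT replicate 1 as for Ccl19. These counts stand beside 13.6% higher and 13% lower over all tested genes. Glycam1 made 40.4 FPKM of the sum of the list in WT replicate 1. Pdpn, at 74.2 to 84.2 FPKM in Fra-2tg and 84.2 to 92.4 FPKM in WT, was its largest part in every library.

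**Figure D3:**
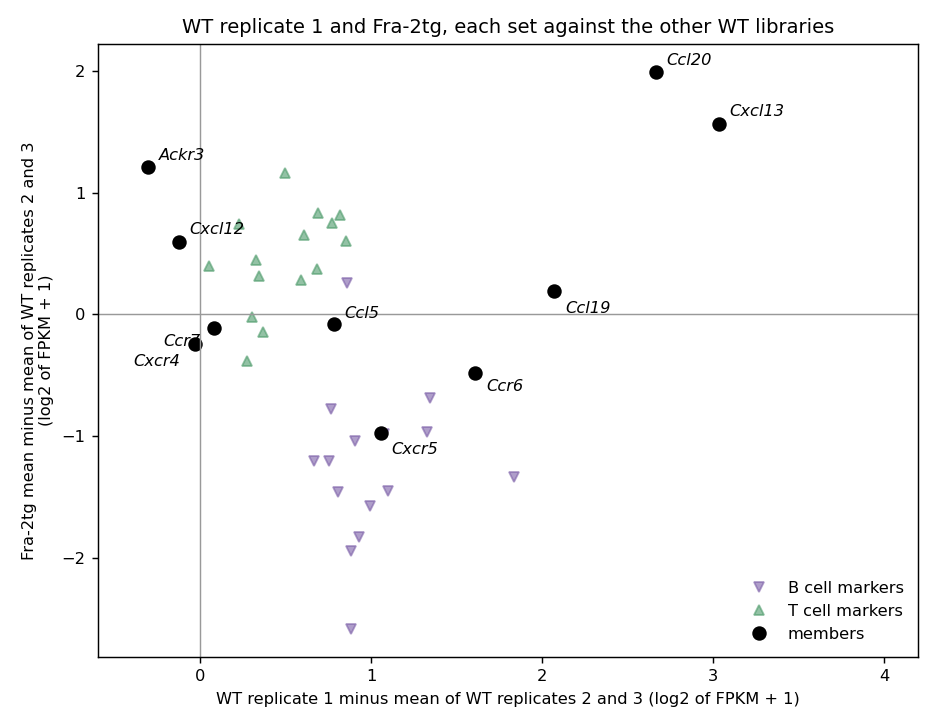
Difference from the mean of WT replicates 2 and 3 (log2 of FPKM + 1) for WT replicate 1 (x axis) and for the Fra-2tg mean (y axis), for the members and the B and T cell markers; both axes share the same baseline libraries. Cxcl13 and Ccl20 are high on both axes, Ccl19 on the x axis alone, and Cxcl12 and Ackr3 on the y axis alone. Cxcr5 lies among most of the B cell markers, above the baseline in WT replicate 1 and below it in Fra-2tg on average. Ccr6 lies on the same sides but at -0.48 on the y axis, less far down than each B cell marker below the baseline (Cr2, the nearest, at -0.68).

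Ccl5 lies on chromosome 11 (83525778 to 83530518, minus strand). It was 63.5, 132 and 68.2 FPKM in Fra-2tg replicates 1 to 3, against 151, 92.1 and 83.2 FPKM in WT replicates 1 to 3. The groups overlapped through Fra-2tg replicate 2. Its log2 fold change was -0.34 (95% interval -1.12 to 0.45, limma adjusted p = 0.487), and -0.08 without WT replicate 1. Natural killer and cytotoxic markers were called lower for 7 of 12 and higher for 0 (6 and 0 without WT replicate 1), with a summed level of 30.9 to 65.4 FPKM in Fra-2tg and 82.4 to 121 FPKM in WT. Ncr1, the receptor NKp46, fell to 0.0797 ± 0.0671 FPKM in Fra-2tg against 3.07 ± 0.755 FPKM in WT, and Klra8 was listed at 0 in 2 Fra-2tg libraries. Gzma, which encodes granzyme A, was 2.13, 17.2 and 3.90 FPKM in Fra-2tg and 38.7, 23.9 and 27.7 FPKM in WT, with Fra-2tg replicate 2 the highest of its group, as it was for Ccl5. Gzmb, which encodes granzyme B and was chosen after its values were seen, went the other way. It was 4.5, 12 and 5.74 FPKM in Fra-2tg and 4.05, 3.4 and 3.27 FPKM in WT. These groups did not overlap, but Gzmb was not called (limma adjusted p = 0.0999). Relative to the natural killer list Ccl5 was higher in Fra-2tg by 0.72 (exact permutation p = 0.1, the smallest possible), and relative to the T cell markers it was lower by 0.63 (exact permutation p = 0.3). The part of these cells in the level of Ccl5 was not tested.

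Among 20 tested genes of other homing ligands, receptors and oxysterol guidance, 8 were higher and 3 lower, with a median log2 fold change of 0.24 (9 and 3 of 19 without WT replicate 1). Ccr1, which encodes a receptor of CCL5, rose to 5.77 ± 0.284 FPKM in Fra-2tg against 3.70 ± 0.126 FPKM in WT. Ccr3, which encodes another, was under the filter and so was not tested. It was 0.226 to 0.314 FPKM in Fra-2tg and 0.038 to 0.0665 FPKM in WT, low values that did not overlap. Cxcr6, the receptor of CXCL16 on T cells, rose to 8.66 ± 0.941 FPKM in Fra-2tg against 3.32 ± 0.51 FPKM in WT. Ackr2, an atypical receptor that takes up inflammatory CC chemokines, fell to 12.7 ± 1.55 FPKM in Fra-2tg against 26.2 ± 3.05 FPKM in WT, and Ackr1, the venular atypical receptor, rose to 5.56 ± 1.71 FPKM in Fra-2tg against 1.33 ± 0.713 FPKM in WT. Ackr4, which takes up CCL19, CCL20 and CCL21, was 5.48 to 5.62 FPKM in Fra-2tg and 5.56 to 6.84 FPKM in WT and was not called. Cxcl14 fell to 56.3 ± 7.15 FPKM in Fra-2tg against 91.5 ± 12.7 FPKM in WT. S1pr1, a receptor with a part in lymphocyte exit, was 88.6 to 127 FPKM in Fra-2tg and 91.8 to 109 FPKM in WT and was not called. Which cells carried S1pr1 was not tested. The values of Ackr1, Ackr4, Ccr1 and Ccr3 were chosen after their values were seen.

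In the list of lymphotoxin signalling and lymphoid organ induction 2 of 19 tested genes were higher and 5 lower (4 and 2 without WT replicate 1). With single libraries left out the lower count ranged from 0 (without Fra-2tg replicate 2) to 4, and it was 1 without Fra-2tg replicate 3, 2 without Fra-2tg replicate 1 and 3 without WT replicate 3. Tnfsf11, which encodes RANKL, rose to 1.40 ± 0.108 FPKM in Fra-2tg against 0.296 ± 0.167 FPKM in WT, and its receptor gene Tnfrsf11a to 2.67 ± 0.27 FPKM in Fra-2tg against 1.71 ± 0.205 FPKM in WT. The BAFF receptor gene Tnfrsf13c, carried by B cells, fell to 0.40 ± 0.107 FPKM in Fra-2tg against 3.50 ± 2.74 FPKM in WT. Ltb, a lymphotoxin chain chosen after its values were seen, was 16.8 to 21.1 FPKM in Fra-2tg and 22.1 to 47.4 FPKM in WT and was not called. In chemokine receptor signalling 4 of 19 were higher and 5 lower (5 and 2 without WT replicate 1). The lower count was 2 whichever single library was left out, and also with no filter or no variance trend. Of the RGS proteins, which shorten G-protein signals, Rgs16 rose to 3.52 ± 0.958 FPKM in Fra-2tg against 1.17 ± 0.398 FPKM in WT and Rgs10 to 53.3 ± 3.81 FPKM in Fra-2tg against 29.3 ± 2.97 FPKM in WT, while Rgs2 fell to 19.4 ± 1.1 FPKM in Fra-2tg against 37.7 ± 4.78 FPKM in WT. Elmo1, which couples the receptors to Rac through DOCK2, fell to 11.9 ± 1.07 FPKM in Fra-2tg against 15.8 ± 0.246 FPKM in WT.

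**Figure D4:**
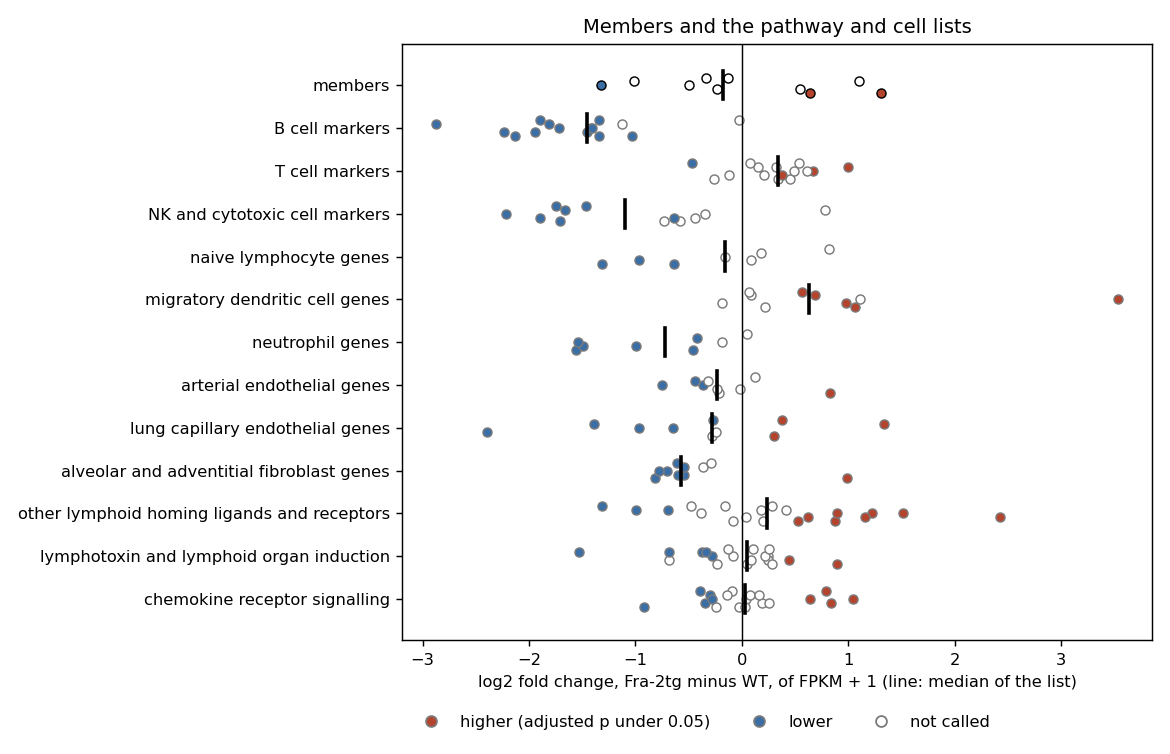
Log2 fold change of FPKM + 1, Fra-2tg minus WT, of each tested gene (points) in the members and 12 gene lists, filled red where called higher and blue where called lower (limma adjusted p under 0.05); the line is the median of the list. The B cell list lies to the left of 0 with 13 of 15 genes called lower, the list of migratory dendritic cells mostly to the right with 5 of 10 called higher, and the members lie on both sides. Over all tested genes 13.6% were called higher and 13% lower.

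Of the 164 tested genes in the pathway and cell lists, those nearest in pattern to each called member over the 6 libraries were found by the root mean square difference of standardised log2 values, where 0 is an identical pattern. For Cxcr5 they were the B cell receptor regulator Cd22 (0.0746) and Tnfrsf13c (0.0966). For Ackr3 they were the chemokine Ccl17 (0.0917) and the cholesterol 25-hydroxylase gene Ch25h (0.172), which were highest in WT replicate 2 among WT libraries and in Fra-2tg replicate 2 among Fra-2tg libraries, as Ackr3 was. For Cxcl12 they were the endothelial sialomucin Emcn (0.168) and the collagen gene Col14a1 (0.194). Both were called higher, though the capillary and fibroblast lists that hold them had more genes called lower. On average Emcn was 186 FPKM in Fra-2tg and 73.3 FPKM in WT, and Col14a1 16.8 and 7.89 FPKM. These likenesses describe 6 libraries that share a genotype difference.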

How the data were processed

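Poly(A) RNA of lung tissue was sequenced in 6 strand-specific libraries, 1 for each mouse. The deposited values are FPKM computed by the authors. The submitters' processing notes name Cufflinks 2.2.1, TopHat2 2.0.10, SAMtools 0.1.19, Bowtie 1.0.0, FastQC and the build GRCm38 (mm10), without roles or settings. No source used here gives how strand and shared fragments were counted. Read numbers are not given. Steps of low FPKM values put relative depth between 0.83 and 1.36 times that of WT replicate 1, with 6.04% to 10.5% of low genes at the step, so these estimates are rough.

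Columns were matched to samples by name and groups taken from the labels. Genes that averaged 0.5 FPKM or more were tested two-sided with limma 3.58.1 (R 4.3.3), with a variance trend and no covariate. Values were log2(FPKM + 1), with Benjamini-Hochberg adjustment over all 14855 genes. P-values measure the spread between 3 mice a group. Differences of a member from a list of markers used exact permutation over libraries. Older symbols were matched through RefSeq synonyms, 1 for the members and 4 among the 181 of 182 list genes found. Coordinates are from GENCODE M21 and promoters from RefSeq (GRCm38.p6).

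The members and lists were chosen with earlier results of these data known. Genes named beside the members were up to 4 called genes of each list by adjusted p, its 2 most abundant genes, Glycam1, and the 2 genes nearest in pattern to each called member. Of these, the ones that bear on a member are described, and others, such as Madcam1, Krt5, Ccl21b, Ccl21c, Sftpb and Ager, were chosen after their values were seen. Some genes that this rule names are not reported here. On data simulated for this comparison over 14855 genes, with 200 changed in each of 10 runs, recovery was 55% at 1.5-fold, 86.5% at 2-fold and 97.5% at 4-fold, on the scale of FPKM + 1, with 4.26% to 5% of calls false. These rates are pooled over all genes. Recovery was not computed apart for genes with a spread as wide as that of Cxcl13 (SE 0.80) or Ccl20 (SE 0.75).

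Alternatives were a filter at 5 FPKM or none, pseudocounts of 0.01 and 0.1 FPKM, leaving out each library, no variance trend, a block for replicate number, median-ratio scaling, and scaling to equal sums without Sftpc and Scgb1a1.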

Additional observations from a re-analysis of the deposited data

How the results depend on the processing

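Over the settings tried, Cxcl12 and Ackr3 stayed called higher in every one, with log2 fold changes of 0.59 to 0.69 and 1.19 to 1.53 with single libraries left out. Of 138 alternative values of the members' fold changes 131 kept their sign and their side of the threshold. Without WT replicate 1 the number of members called higher was 4, Ccl20 and Cxcl13 were called (1.99 and 1.57) and Ccl19 turned sign (0.19); without WT replicate 3 Cxcl13 turned sign (-0.12). Over single libraries left out, Ccl19 ranged from -0.97 to 0.19, Ccl20 from 0.50 to 1.99, Cxcl13 from -0.12 to 1.57, Cxcr4 from -0.37 to -0.15 and Cxcr5 from -1.51 to -0.97, with Cxcr5 not called without Fra-2tg replicate 3 and Cxcr4 called lower without Fra-2tg replicate 1. The members called then ranged from 2 to 4 higher and 0 to 2 lower, and all genes called from 1088 to 1695 higher and 1141 to 1709 lower, fewest without WT replicate 3. The causes of these changes were not tested.

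Rescaling to equal library sums shifted the median of all genes by -0.13, which gave 1148 genes higher and 3438 lower, 25% of calls higher against 51.1% as deposited (2027 and 1936). Relative to that median Cxcl12 was at 0.62, Ackr3 at 1.29 and Cxcr5 at -1.30. Cxcr4 was then called lower (-0.38 before that shift is taken off), making 2 members lower. The filter at 5 FPKM removed Cxcr5 and Ccr6, so 0 members were called lower, and left 18 list genes called higher. All 144 alternative values of members set against marker lists kept their sign. The 144 include the scalings of whole libraries, which act on member and list alike and so could hardly change it.

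Same-numbered libraries of the genotypes did not deviate together (correlations -0.0539, 0.0139 and 0.163), and not every library correlated best with its own number. With the replicate number as a block 1890 genes were higher and 1651 lower, with the same 3 members called. A smaller pseudocount moved Cxcr5 most among the called members, to -1.74 at 0.1 FPKM and -1.80 at 0.01 FPKM. The number of reads is unknown, so no counting error can be given for the low values of Cxcr5, Ccr6 and Ccl20.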

Other observations

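Cr2, Rgs13 and Il4i1, list genes chosen after their values were seen, were each highest in WT replicate 1. Cr2, the complement receptor of follicular dendritic cells and mature B cells, was 0.183 to 0.277 FPKM in Fra-2tg and 0.979 to 4.05 FPKM in WT (limma adjusted p = 0.0573), and was called lower without WT replicate 1 (log2 fold change -0.68, limma adjusted p = 0.0104). Rgs13, a gene of germinal centre B cells, had no value above 0 in Fra-2tg or in WT replicates 2 and 3, and was 0.317 FPKM in WT replicate 1. Il4i1, a gene of mature dendritic cells and activated B cells, was 2.85 to 5.15 FPKM in Fra-2tg, 6.09 FPKM in WT replicate 1 and at most 0.236 FPKM in the other WT libraries. As for Cxcl13 and Ccl20, its Fra-2tg values lay between WT replicate 1 and the other WT libraries (limma adjusted p = 0.263, and 0.00624 without WT replicate 1).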
